A study of Homo sapiens with 15 samples.

Results

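The 9 CXC chemokine genes CXCL1, CXCL2, CXCL3, CXCL5, CXCL6, CXCL8, CXCL12, CXCL14 and CXCL16 and the chemokine receptor gene CXCR4 were examined on arrays of SCC13 cells, a cell line from a squamous cell carcinoma (SCC) of the skin. They were chosen by name as 10 of the 20503 genes to which a probe of the array could be assigned, and all 10 had at least 1 probe (15 probes together). The cells were stably transfected with a plasmid for TLR4 fused to GFP (SCC13-TLR4, called TLR4 cells here) or with the pUNO control plasmid (SCC13-pUNO, called pUNO cells), and both lines were kept under blasticidin selection. The arrays held 4 samples of untreated pUNO cells, 3 of untreated TLR4 cells, and 4 of each line after 24 h with 10 μg/ml LPS, the bacterial lipopolysaccharide that TLR4 senses. Per the study's methods, SCC13 cells lack TLR4 of their own and the TLR4 cells were sorted for the strongest GFP signal, so that each line is 1 transfected population and a difference between the lines cannot be told apart from one between 2 transfections. Per the study's methods the 4 cultures of a group were seeded in parallel (3 arrays of untreated TLR4 cells were analysed here), so that p-values measure the spread between parallel cultures of 1 population.

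CXC chemokines are small secreted proteins that direct the movement of cells through receptors on their surface. CXCL1, CXCL2, CXCL3, CXCL5, CXCL6 and CXCL8 (interleukin-8) carry the ELR motif, act on CXCR2 and attract neutrophils, and keratinocytes make several of them when NF-kB is activated, for example below TLR4. CXCL12 acts on CXCR4 and ACKR3, CXCL14 is made by resting epidermis, and CXCL16 is a membrane-bound chemokine that ADAM10 and ADAM17 can release and that acts on CXCR6.

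The 6 ELR genes lie together on chromosome 4, where they are 6 of the 9 protein-coding genes between CXCL8 and CXCL2, while CXCL12 lies on chromosome 10, CXCL14 on chromosome 5, CXCL16 on chromosome 17 and CXCR4 on chromosome 2. Their promoters are shown because they share a sequence that the rule did not use. The RefSeq promoters (GRCh38.p14, 250 bases before to 50 after each start) held an entry for 9 of the 10 genes, all but CXCL16. The kappa B sequence GGAATTTCC, a binding sequence of NF-kB, was found once in each of the 6 ELR promoters and in none of CXCL12, CXCL14 and the 3 starts of CXCR4, against 0.461% of all 35116 promoters (both strands searched). Its first base lay 77 to 91 bases before the start. The stretches from 110 to 41 bases before the start are given 5′ to 3′ on the strand of the gene, with the kappa B sequence in capitals.
CXCL1: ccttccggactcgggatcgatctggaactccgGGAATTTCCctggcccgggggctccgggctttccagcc
CXCL2: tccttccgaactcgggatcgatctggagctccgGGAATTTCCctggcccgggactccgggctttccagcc
CXCL3: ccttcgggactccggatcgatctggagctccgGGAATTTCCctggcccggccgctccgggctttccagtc
CXCL5: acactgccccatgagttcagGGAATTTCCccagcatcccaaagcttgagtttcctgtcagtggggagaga
CXCL6: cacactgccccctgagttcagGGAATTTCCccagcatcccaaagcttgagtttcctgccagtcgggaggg
CXCL8: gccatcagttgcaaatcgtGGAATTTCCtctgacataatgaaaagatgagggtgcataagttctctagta
They lie at chr4:73869283-73869352 (plus strand) for CXCL1, chr4:74099236-74099305 (minus strand) for CXCL2, chr4:74038730-74038799 (minus strand) for CXCL3, chr4:73998718-73998787 (minus strand) for CXCL5, chr4:73836568-73836637 (plus strand) for CXCL6 and chr4:73740459-73740528 (plus strand) for CXCL8. Aligned at the kappa B sequence without gaps, 60 bases of the CXCL3 promoter matched the CXCL1 promoter at 56 positions. Compared with the CXCL1 promoter in the same way, that of CXCL2 matched at 48 positions, those of CXCL5 and CXCL6 at 27 each and that of CXCL8 at 24. The looser form GGNNNTTCC, which includes the first, was present a second time, 53 bases before the start, in CXCL1, CXCL2 and CXCL3, and 20.1% of all promoters held at least 1 match. TATAAA was present in CXCL8, 31 bases before the start, and in 1 of the 3 CXCR4 starts, against 11.5% of all promoters. These matches describe the letters of the promoters only.

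Signals are given on a log2 scale on which 0 is the 75th percentile of an array, and that percentile lay between 192 and 420 intensity units. TLR4 was checked first, with the probe A_24_P69538. It was between 2.84 and 3.19 on the 7 arrays of TLR4 cells. In pUNO cells it was between -6.40 and -3.80 on 3 of the 4 untreated arrays and between -6.26 and -4.74 with LPS, whereas the array labelled untreated pUNO replicate 2 read 3.04, against its label. Untreated pUNO replicate 1, at -3.80, was also called well above background, though far below the TLR4 cells. The other TLR4 probe, A_32_P66881, gave no signal well above background on any of the 15 arrays and so cannot check the labels. The main results that rest on the array labelled untreated pUNO replicate 2 are therefore given with and without it. The arrays came from 2 slides, 8 arrays on slide 1 and 7 on slide 2, each with all 4 groups. Untreated cells were spread unevenly, with 3 pUNO arrays and 1 TLR4 array on slide 1 and 1 pUNO array and 2 TLR4 arrays on slide 2. Of the 9 keratinocyte markers examined, 8 were well above background on all 15 arrays, and 7 of the 8 fibroblast markers were so on none. Of the markers of other cells with a probe, 3 of 6 for leukocytes (PTPRC, CD14 and CD68), 1 of 5 for endothelium (CDH5) and 1 of 4 for melanocytes (PMEL) were well above background on all arrays, and 0 of these markers passed the limma threshold in any of the 6 comparisons.

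**Figure D1:**
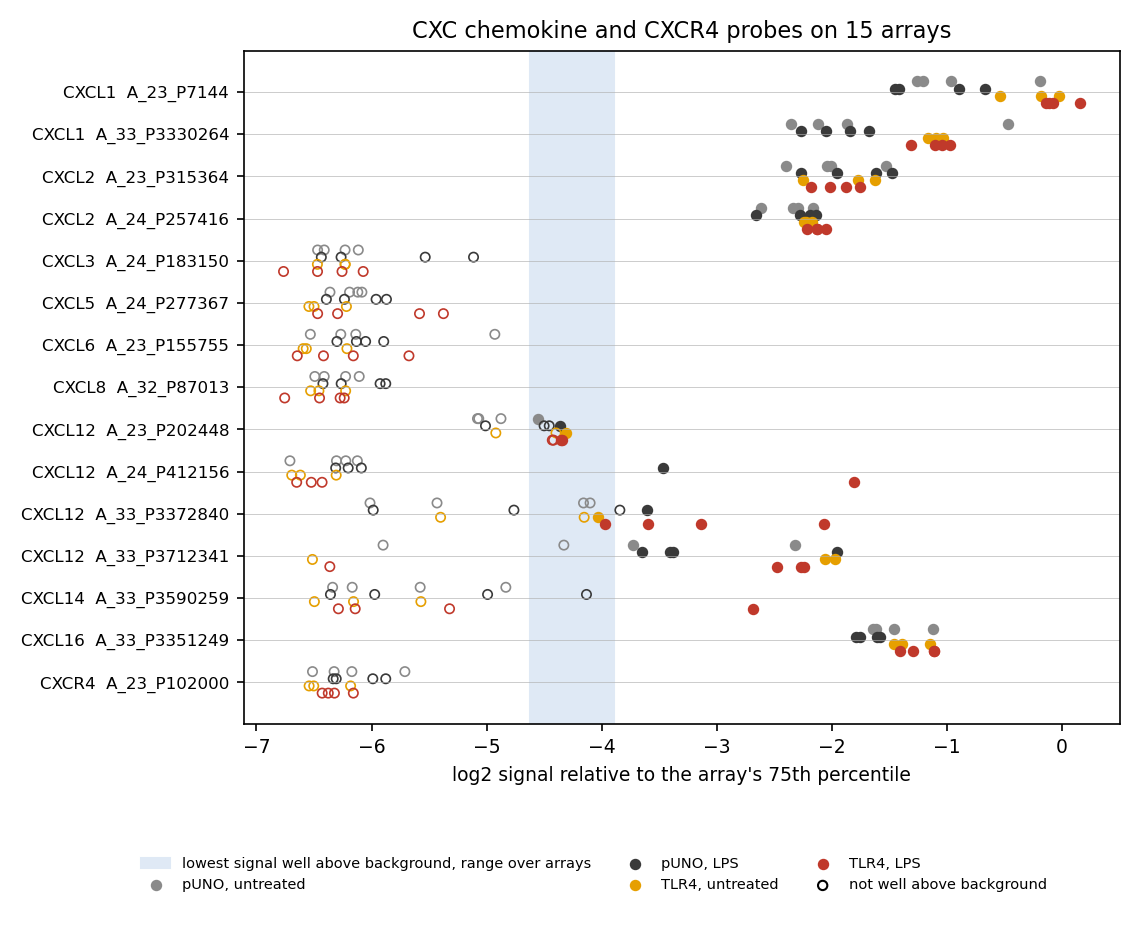
Log2 signal above or below the array's 75th percentile (x axis) for the 15 probes of the 9 CXC chemokines and CXCR4 (rows), 1 point per array and coloured by group, filled where the probe was well above background and open where it was not. The shaded band runs from -4.63 to -3.89, the range over the arrays of the lowest signal among single spots well above background. The mean of a probe with several spots can lie lower. CXCL3, CXCL5, CXCL6, CXCL8 and CXCR4 have open points only. Levels of different probes are not comparable.

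Of the 15 probes, 5 were well above background on all 15 arrays, against 19477 of all 50599 probes. Throughout at least 1 group 7 of the 15 were so, against 22685 of 50599, and both counts lie near the background. CXCL1, CXCL2 and CXCL16 were well above background on all 15 arrays, with all 5 of their probes. CXCL3, CXCL5, CXCL6, CXCL8 and CXCR4 were not well above background on any array, untreated or with LPS and in either line. Their signals lay between -6.77 and -4.93, below the lowest signal of a single spot called well above background, which ranged from -4.63 to -3.89 over the arrays. CXCL8, the classical LPS-induced chemokine of epithelial cells, lay between -6.76 and -6.23 on the 7 TLR4 arrays and between -6.49 and -5.88 on the 8 pUNO arrays, so that no level could be given for any group. CXCR4, the mean of 10 spots per array, lay between -6.54 and -5.71. Probe A_33_P3590259 of CXCL14 was well above background on 1 array, LPS-treated TLR4 replicate 1, at -2.69, and between -6.50 and -4.13 on the other arrays. CXCL12 passed on some arrays only and is described below. A test was therefore possible for 7 probes of 4 genes, each of which was above background throughout at least 1 group.

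CXCL1, a ligand of CXCR2, had the largest differences between the lines among the probes of CXCL1, CXCL2 and CXCL16. With probe A_23_P7144, untreated pUNO cells read -1.26, -0.19, -1.21 and -0.96, and untreated TLR4 cells read -0.53, -0.18 and -0.03. With LPS, pUNO cells read -1.45, -1.41, -0.67 and -0.90, and TLR4 cells read -0.08, 0.16, -0.14 and -0.11. All 4 LPS-treated TLR4 arrays lay above all 4 LPS-treated pUNO arrays, and in untreated cells the only pUNO array within the TLR4 range was replicate 2. The second CXCL1 probe, A_33_P3330264, read -2.12, -0.47, -2.35 and -1.87 in untreated pUNO cells and -1.16, -1.04 and -1.10 in untreated TLR4 cells. With LPS it read -1.84, -1.68, -2.05 and -2.27 in pUNO cells and -1.10, -0.97, -1.04 and -1.31 in TLR4 cells. Again the LPS-treated groups did not overlap, and replicate 2 of untreated pUNO cells, the highest of all 15 arrays with this probe, was the only pUNO array above a TLR4 array.

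**Figure D2:**
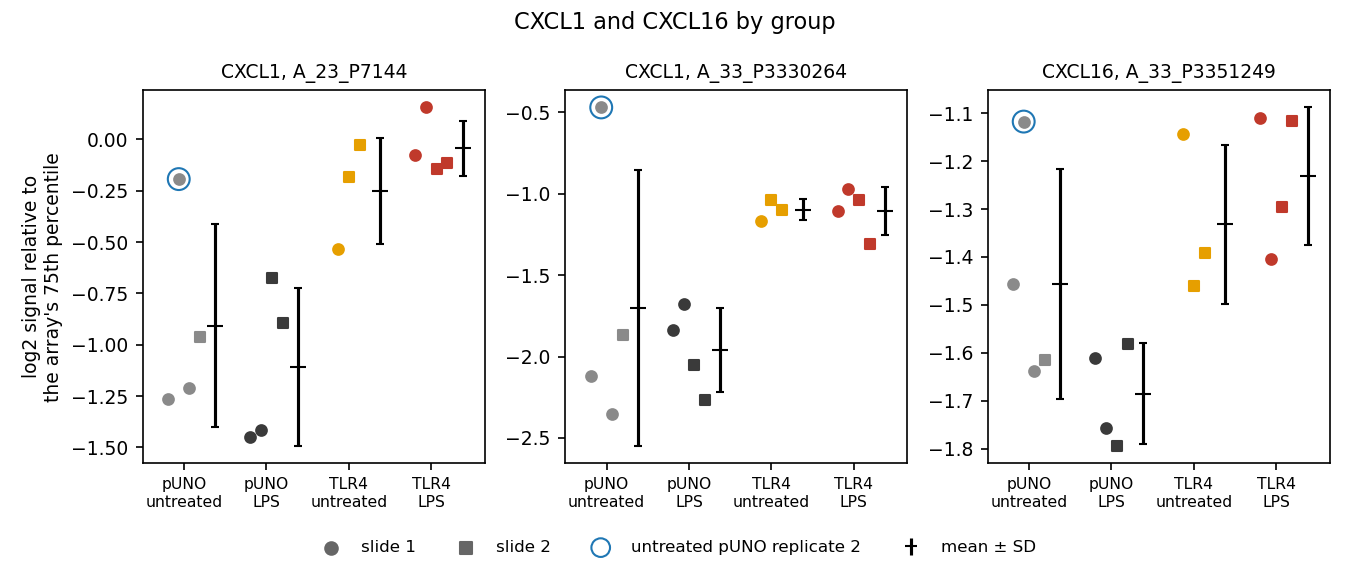
Log2 signal above or below the array's 75th percentile (y axis, own scale in each panel) for the CXCL1 probes A_23_P7144 and A_33_P3330264 and the CXCL16 probe A_33_P3351249 in the 4 groups (x axis). Circles are arrays of slide 1, squares of slide 2, bars show mean ± SD (n = 4, 4, 3 and 4), and the ring marks the array labelled untreated pUNO replicate 2. With LPS all TLR4 arrays lie above all pUNO arrays in each panel.

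With LPS, CXCL1 was 2.09-fold higher in TLR4 cells with probe A_23_P7144 (log2 difference 1.06, SE 0.24) and 1.81-fold higher with probe A_33_P3330264 (0.85, SE 0.31), each with p = 0.0286 in a two-sided exact permutation test, the smallest that 4 against 4 arrays allow. The difference was positive on both slides, 1.47 and 0.66 with the first probe and 0.72 and 0.99 with the second. In untreated cells the differences were 0.66 (SE 0.26, exact permutation p = 0.114) and 0.60 (SE 0.33, exact permutation p = 0.257). Without replicate 2 of untreated pUNO cells they were 0.90 and 1.01, with all 9 pairs of arrays in the same direction for both probes and an exact permutation p of 0.1, the smallest that 3 against 3 allow. Within slides 1 and 2, with all arrays, the untreated differences were 0.35 and 0.85 for the first probe and 0.48 and 0.80 for the second. Each of these rests on 1 array of a line. Averaged over both conditions, CXCL1 was higher in TLR4 cells by 0.86 (SE 0.17) and 0.73 (SE 0.23). Permuting the line labels within each condition gave exact p-values of 0.00163 and 0.0163 over 2450 regroupings, and permuting them within condition and slide gave 0.00463 and 0.0139 over 432. Without replicate 2 of untreated pUNO cells the averages were 0.98 and 0.93. The exact permutation p-values of both probes were then 0.00143 within condition and 0.00309 within condition and slide.

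Over all 22685 probes tested, the limma adjusted p of CXCL1 did not pass 0.05 in any comparison with all 15 arrays. The lowest were 0.227 for probe A_23_P7144 in the mean over both conditions and 0.545 with LPS. That threshold was passed by few probes at all, 0.0% in untreated cells, 0.0% with LPS, 0.022% in the mean over both conditions, 0.0% for LPS against untreated cells in pUNO, 0.0% in TLR4 and 0.0% for the difference of the responses. At an unadjusted limma p under 0.05, the probes past the threshold in the comparisons with 0 calls numbered 566 in untreated cells, 617 with LPS, 562 and 301 for LPS in pUNO and TLR4 cells, and 299 for the difference of the responses. Without the array labelled untreated pUNO replicate 2, both CXCL1 probes passed in the mean over both conditions, with limma adjusted p-values of 0.0169 and 0.004, among 0.101% of all probes. With slide added as a factor to that fit they passed as well, with limma adjusted p-values of 0.00594 and 0.00375, among 0.215% of all probes, and probe A_23_P7144 then passed with LPS alone (limma adjusted p = 0.0246, among 0.0967%).

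At an unadjusted limma p under 0.05, 4 of the 7 probes differed between the lines with LPS, against 2.72% of all probes, and 3 of 7 in the mean over both conditions, against 4.33%. Both CXCL1 probes and that of CXCL16 were in each count, and the fourth with LPS was the CXCL12 probe A_33_P3372840, which entered the test only through its signal in LPS-treated TLR4 cells and so had to be high there. With normexp background correction the counts were 2 of 7 with LPS, against 1.91% of all probes, and 3 of 7 in the mean over both conditions, against 2.87%. Every LPS-treated TLR4 array lay above every LPS-treated pUNO array for 3 of the 7 probes (both of CXCL1 and that of CXCL16), against 0.556% of all probes. Over all arrays this was so for 0 of the 7, against 0.0268% of all probes, and for 2 of the 7 (both of CXCL1) once replicate 2 of untreated pUNO cells was set aside, against 0.125%. In untreated cells without that array, both CXCL1 probes were fully separated, against 4.13% of all probes. No median difference over the 7 probes is given, since 2 of them, the CXCL12 gamma probes, each entered the test through 1 group alone and were partly not above background elsewhere. Of the 8 keratinocyte markers tested, read with the brightest probe, 2 also had an unadjusted limma p under 0.05 between the lines with LPS, both higher in TLR4 cells. They were KRT14, a basal keratin, by 1.68 (SE 0.35, limma adjusted p = 0.458; 1.28 in the mean over both conditions), and KRT17 by 0.49 (SE 0.22, limma adjusted p = 1.00). Of the other tested markers, KRT5, TP63 and DSG3 had higher means in TLR4 cells with LPS, and SFN, CDH1 and EPCAM had lower ones. The summed level of the 9 markers lay between 8.99 and 9.26 on the LPS-treated pUNO arrays and between 8.91 and 9.38 on the LPS-treated TLR4 arrays. SFN, the brightest marker, weighs most in this sum of linear signals, which therefore says little about KRT14 or KRT17. The part of KRT14 and KRT17 in the CXCL1 and CXCL16 results was not tested. The counts of chemokine probes describe those that could be measured, not all 10 genes, and probes of 1 gene are not independent. The study had already named CXCL1 and CXCL12 among the upregulated genes from these same arrays. The counts are therefore no independent support for a difference between the lines.

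CXCL16 followed the same order of groups with LPS at a smaller size. Its probe A_33_P3351249 read -1.46, -1.12, -1.64 and -1.61 in untreated pUNO cells and -1.14, -1.46 and -1.39 in untreated TLR4 cells. With LPS it read -1.61, -1.76, -1.79 and -1.58 in pUNO cells and -1.11, -1.40, -1.30 and -1.12 in TLR4 cells. The LPS-treated groups did not overlap, and the untreated groups did. CXCL16 was 1.37-fold higher in LPS-treated TLR4 cells (log2 difference 0.45, SE 0.13, exact permutation p = 0.0286), by 0.43 on slide 1 and 0.48 on slide 2. In untreated cells the difference was 0.12 (SE 0.14, exact permutation p = 0.514), or 0.24 without replicate 2 of untreated pUNO cells. The mean over both conditions was 0.35 without that replicate (exact permutation p = 0.00286 within condition and 0.00617 within condition and slide). With all arrays it was 0.29 (SE 0.10), with exact p-values of 0.0171 within condition and 0.0231 within condition and slide. Its limma adjusted p was 0.996 in that comparison and 1.00 with LPS, and it passed 0.05 under no alternative.

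CXCL2, a close relative of CXCL1 with the same receptor, was measured well above background on every array, and its probes gave smaller differences between the lines than those of CXCL1. Probe A_23_P315364 was -1.99 ± 0.36 (SD, n = 4) in untreated pUNO cells, -1.88 ± 0.33 (SD, n = 3) in untreated TLR4 cells, -1.83 ± 0.36 (SD, n = 4) in pUNO cells with LPS and -1.96 ± 0.18 (SD, n = 4) in TLR4 cells with LPS. Probe A_24_P257416 was -2.35 ± 0.19 (SD, n = 4), -2.21 ± 0.04 (SD, n = 3), -2.32 ± 0.24 (SD, n = 4) and -2.13 ± 0.07 (SD, n = 4) in the same order. The groups overlapped in every comparison. The difference between the lines with LPS was -0.13 with the first probe (95% interval -0.59 to 0.33) and 0.19 with the second (-0.08 to 0.46), and in untreated cells 0.11 (-0.39 to 0.61) and 0.14 (-0.15 to 0.43). In the mean over both conditions the first probe gave -0.01 (exact permutation p = 0.951) and the second 0.16 (exact permutation p = 0.0441 within condition and 0.0185 within condition and slide). Without replicate 2 of untreated pUNO cells the exact permutation p of the second was 0.0657 within condition and 0.0278 within condition and slide. Whether the probes of CXCL2 differed from each other, or CXCL2 from CXCL1, was not tested.

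**Figure D3:**
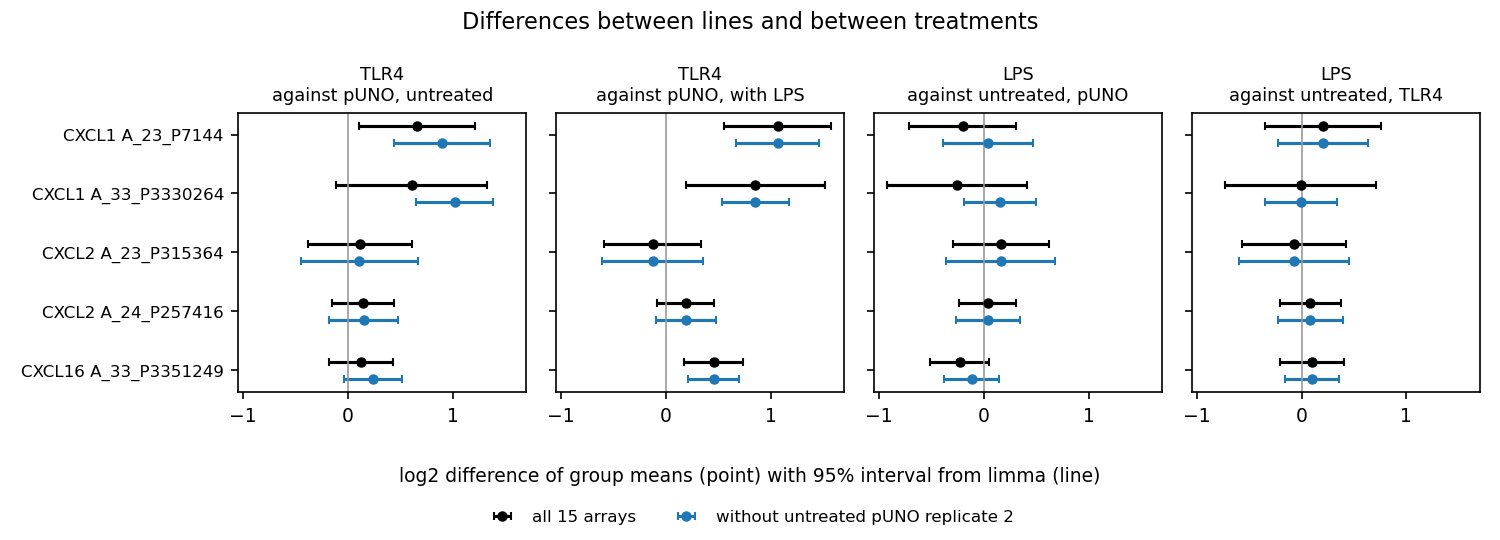
Log2 difference of group means (x axis, points) with its 95% interval from limma (lines) for the probes of CXCL1, CXCL2 and CXCL16 (rows) in 4 comparisons (panels), with all 15 arrays in black and without the array labelled untreated pUNO replicate 2 in blue. The CXCL1 and CXCL16 intervals lie above 0 between the lines with LPS, and all intervals for LPS against untreated cells include 0.

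Between LPS-treated and untreated cells of a line, no probe of CXCL1, CXCL2 or CXCL16 passed the limma threshold. None of these 5 probes had an unadjusted limma p under 0.05 in either line, which 2.48% of all probes had in pUNO cells and 1.33% in TLR4 cells, so that a count of 0 lies near the background. For CXCL1, the log2 difference between LPS-treated and untreated pUNO cells was -0.20 (95% interval -0.71 to 0.31) with probe A_23_P7144 and -0.26 (-0.92 to 0.41) with probe A_33_P3330264. Without replicate 2 of untreated pUNO cells these turned to 0.04 and 0.16. In TLR4 cells it was 0.21 (-0.35 to 0.76) and -0.01 (-0.73 to 0.71). The intervals leave room for changes of CXCL1 in both directions. The response of TLR4 cells exceeded that of pUNO cells by 0.41 (-0.34 to 1.16) and 0.25 (-0.73 to 1.23), which did not pass the test, and without that replicate the values were 0.17 and -0.16. CXCL16 differed between LPS-treated and untreated cells by -0.23 (-0.51 to 0.05) in pUNO cells and by 0.10 (-0.20 to 0.40) in TLR4 cells, and the difference of these responses was 0.33 (-0.08 to 0.74). Without replicate 2 of untreated pUNO cells, the value in pUNO cells was -0.12 and the difference of the responses 0.22. A difference between the lines that passes in 1 condition only is therefore not shown to depend on LPS.

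CXCL12, the ligand of CXCR4 and ACKR3, had 4 probes, which differed in the transcript they read and in the arrays on which they gave a signal. Probe A_23_P202448 of the alpha transcript (the mean of 10 spots per array) was well above background on 5 of 15 arrays and lay between -5.08 and -4.31, close to the lowest signal that could be measured. Probe A_24_P412156 of the beta transcript was well above background on 2 arrays, LPS-treated TLR4 replicate 2 at -1.80 and LPS-treated pUNO replicate 4 at -3.47, and between -6.71 and -6.09 on the other 13 arrays.

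The other CXCL12 probes read the gamma transcript. Probe A_33_P3372840 was well above background on 0 of 4 untreated pUNO arrays, 1 of 3 untreated TLR4 arrays, 1 of 4 LPS-treated pUNO arrays and 4 of 4 LPS-treated TLR4 arrays, where it read -2.06, -3.14, -3.59 and -3.97. It lay between -5.99 and -3.60 on the LPS-treated pUNO arrays, which overlap with these, and between -5.40 and -4.03 on the untreated TLR4 arrays. Since that group alone brought the probe into the test and the other groups were mostly not above background, no difference or p is given for it. Probe A_33_P3712341, on the same transcript, did not follow it. It was well above background on 11 of 15 arrays and on all arrays of LPS-treated pUNO cells only, so that this group alone brought it into the test. Its difference between the lines with LPS was -0.24, which includes a value not above background, and no p is given for it. On LPS-treated TLR4 replicate 1, where the first gamma probe had its highest value, this probe was not well above background, at -6.36, and without that array its difference between the lines with LPS turned to 0.77. No probe of CXCL12 passed the limma threshold in any comparison, and the probes gave no common pattern.

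**Figure D4:**
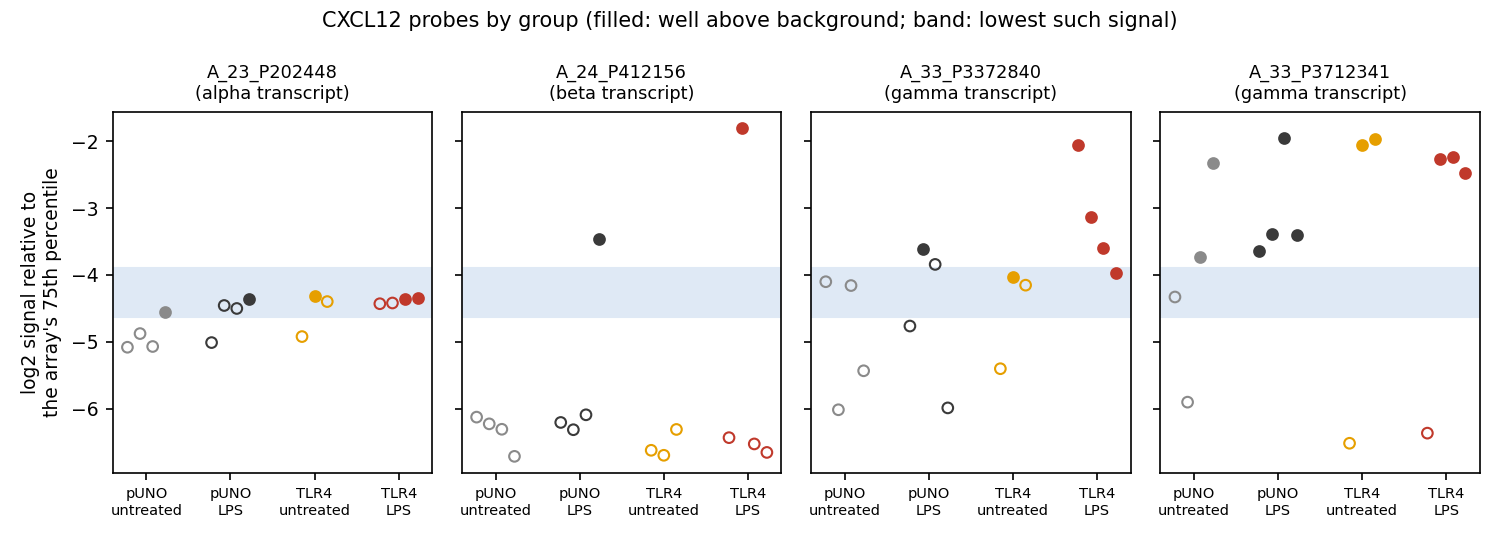
Log2 signal above or below the array's 75th percentile (y axis) for the 4 probes of CXCL12 (panels) in the 4 groups (x axis), 1 point per array, filled where well above background. The shaded band is the range over arrays of the lowest signal of a single spot well above background, -4.63 to -3.89. The alpha probe stays near the band, the beta probe is above it on 2 arrays, and the gamma probes disagree array by array.

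Of 15 other genes of the family, 9 were well above background on no array, among them CXCL9, CXCL11, PPBP and CXCR6, the receptor of CXCL16. ACKR3 and CXCR3 could be tested. ACKR3, an atypical receptor that removes CXCL12, was 2.74 ± 0.16 (SD, n = 4) in untreated and 2.82 ± 0.18 (SD, n = 4) in LPS-treated pUNO cells, and 2.54 ± 0.24 (SD, n = 3) in untreated and 2.35 ± 0.12 (SD, n = 4) in LPS-treated TLR4 cells. With LPS it was lower in TLR4 cells by a log2 difference of -0.47 (SE 0.13, exact permutation p = 0.0286). In the mean over both conditions the difference was -0.34 (exact permutation p = 0.00653), or -0.37 without replicate 2 of untreated pUNO cells (exact permutation p = 0.00429). The limma adjusted p-values with all arrays were 1.00 and 0.928. Its unadjusted limma p was under 0.05 in both comparisons, as it was for 2.72% and 4.33% of all probes. CXCR3, the receptor of CXCL9, CXCL10 and CXCL11, was -1.71 ± 0.23 (SD, n = 4) in untreated pUNO cells and -0.98 ± 0.44 (SD, n = 3) in untreated TLR4 cells with probe A_33_P3389230 (exact permutation p = 0.0286, limma adjusted p = 0.999). Without replicate 2 of untreated pUNO cells its exact permutation p was 0.1. Every untreated TLR4 array then lay above every untreated pUNO array, as was so for 4.13% of all probes. The other CXCR3 probe was well above background on none of the 15 arrays. With LPS the CXCR3 values were -1.17 ± 0.34 (SD, n = 4) in pUNO cells and -1.23 ± 0.38 (SD, n = 4) in TLR4 cells. In pUNO cells it was higher with LPS than untreated by 0.54 (exact permutation p = 0.0286, limma adjusted p = 0.9996). Without replicate 2 of untreated pUNO cells this was 0.61 (exact permutation p = 0.0571). Its unadjusted limma p with all arrays was under 0.05 there, as for 2.48% of all probes. In TLR4 cells the LPS difference was -0.25 (exact permutation p = 0.457).

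Among 14 genes that act on these chemokines or on their transcripts, 12 were tested, and 0 passed a limma adjusted p of 0.05 in any of the 6 comparisons with any probe. Of their 15 tested probes, 1 had an unadjusted limma p under 0.05 in any comparison, A_23_P99540 of ZFP36L1, lower in TLR4 cells in the mean over both conditions by a log2 difference of -0.20. At that threshold 1.32% to 4.33% of all probes passed in each comparison, so that this count lies near the background. The 14 genes include ADAM10 and ADAM17, which shed CXCL16, the RNA-binding proteins ZFP36 and ZC3H12A, which shorten the life of chemokine transcripts, and the NF-kB genes NFKB1, RELA, RELB and NFKBIA. TNFAIP3, an NF-kB target, and DPP4, which trims CXCL12, were well above background on no array.

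The genes whose pattern was most like that of a chemokine were ranked by Pearson's r over the 15 arrays after the mean of each slide was removed, among 12958 other genes. For CXCL1 they were HBB (r = 0.94), TLR4 (0.93) and IRX5 (0.91), and for CXCL16 they were GDA (0.92), TLR4 (0.88) and SNX7 (0.87). For CXCL2 they were ANKS6 (0.84), TOX2 (0.83) and NGEF (0.82). These values describe arrays that share line, treatment and slide, they include the array labelled untreated pUNO replicate 2, and they are the highest of many. On that array CXCL1, CXCL16 and TLR4 were all at the level of the TLR4 arrays or, for CXCL1 with probe A_33_P3330264, above it.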

How the data were processed

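RNA of 15 samples was read on 1-colour Agilent SurePrint G3 Human 8x60K arrays, whose design header names hg19. Per the file headers, the authors obtained each intensity from Feature Extraction 10.7.3.1, which subtracts the background and corrects spatial trends, and deposited it without normalization between arrays. They selected genes by an adjusted p under 0.05 and an absolute log fold change above 2, and the test itself is not named in the sources used here.

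Probe accessions were matched to genes in a RefSeq table of GRCh38.p14 (28174 of 50599 probes). From each log2 intensity the 75th percentile of its array was subtracted. Control spots and 300 to 646 outlier spots per array were removed, and spots of a probe were averaged. Of the spots, 47.1% to 56.2% per array stood well above background, and precision is limited by the number of arrays. The model (limma 3.58.1, R 4.3.3) gave each group a mean and covered the 22685 probes that stood well above background throughout 1 group or more, with Benjamini-Hochberg adjustment over all of them and a threshold of 0.05. The fit was tested on simulated data. Groups and replicate numbers came from the labels. Single probes had exact permutation tests over arrays (two-sided, unadjusted). Alternatives were normexp background correction (offset 50), quantile normalization, outlier spots kept, the filter dropped or set on all 15 arrays, a replicate block, slide as a factor (also with untreated pUNO replicate 2 left out), fits of the compared groups alone, and leaving out every array once. Tables and figures were made with Python 3.11.15, pandas 2.3.3 and matplotlib 3.10.9.

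Every probe of the 10 genes is named. The other family genes, the genes acting on chemokines, the markers and the motifs were written down as lists. For the nearest patterns, the brightest tested probe of a gene was used. The genes and lists were chosen with earlier results of these data known. No protein sequences were used here.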

Additional observations from a re-analysis of the deposited data

Results flagged for a closer look

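Of 21 groups of 4 arrays examined for the 7 tested probes, 2 held an array far from the others, where chance alone gives about 1 in 20 groups. Both were of the CXCL12 gamma probe A_33_P3712341. On LPS-treated pUNO replicate 3 it read -1.96, against -3.65 to -3.38 on its 3 companions. On LPS-treated TLR4 replicate 1 it read -6.36, not well above background, while the other 3 arrays lay between -2.48 and -2.24.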

How the results depend on the processing

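The 25 log2 differences reported for the tested probes gave 591 values under the alternatives, of which 565 kept their direction and their side of the limma threshold, 5 passed it (all of CXCL1, without the array labelled untreated pUNO replicate 2) and 21 changed sign. All 21 were of differences whose main value did not pass the test, and the cause was not tested. CXCL1 and CXCL16 were higher in TLR4 cells under every alternative, in untreated cells, with LPS and in the mean of both. With slide as a factor and that array left out, CXCL1 (A_33_P3330264) turned to 0.17 for LPS in pUNO cells and to -0.18 for the difference of the responses, and CXCL2 (A_23_P315364) turned to -0.063 between the untreated lines. With slide as a factor alone, that CXCL2 value was -0.10. Leaving out each array in turn, CXCL1 ranged from -0.35 to 0.037 (A_23_P7144) and from -0.47 to 0.16 (A_33_P3330264) for LPS in pUNO cells. With the latter probe it ranged from -0.051 to 0.061 for LPS in TLR4 cells and from -0.16 to 0.47 for the difference of the responses. CXCL2 (A_23_P315364) ranged from -0.025 to 0.29 between the untreated lines and from -0.084 to 0.082 in the mean over both conditions, and CXCL12 (A_33_P3712341) from -0.60 to 0.77 between the lines with LPS.

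Of all 22685 probes, 5 passed in the mean over both conditions, against 22 with slide as a factor, 49 with slide and that array left out, 2 with no filter, and 0 each with the filter on all arrays, outlier spots kept and quantile normalization. With slide and that array left out, 11 passed in untreated cells and 22 with LPS, and with only the groups compared 5 passed with LPS. Leaving out each array in turn gave 0 to 7 probes in untreated cells, 0 to 10 with LPS, 0 to 1 and 0 to 5 for LPS in pUNO and TLR4 cells, 0 to 3 for the difference of the responses and 0 to 23 in the mean over both conditions, the highest of which, and those of 7 and 10, came without the array labelled untreated pUNO replicate 2. With untreated TLR4 replicate 1 or 3 left out, 2 or 5 probes passed in untreated cells.

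Replicate numbers are shared between the groups but were not taken to pair the samples, since not every pair correlated above 0.1. The 15 same-number pairs on 1 slide all did (0.195 to 0.616) and the 6 pairs split across slides did not (-0.537 to -0.194), so number and slide cannot be told apart, and 8 of 15 arrays correlated best with an array of their own number. With a replicate block, 0 probes passed in the mean over both conditions, CXCL1 (A_33_P3330264) turned to 0.069 for LPS in TLR4 cells and CXCL2 (A_23_P315364) to 0.039 in the mean over both conditions.

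Faint signals limit the statements on CXCL3, CXCL5, CXCL6, CXCL8, CXCL14, CXCR4 and CXCL12: a level below about the lowest measurable signal of an array cannot be told from none.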
